A study of Homo sapiens with 3 samples.

Results

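The response of DLD1 colon cancer cells to 24 h of Cdx1 expression was read from the array that hybridised RNA of induced cells (Cy3) against RNA of non-induced cells (Cy5). This was 1 of 3 2-colour TORAY 3D-Gene arrays, the others being Cdx1 at 12 h and Cdx2 at 24 h. The cells were a TetOff clone of DLD1, a line from a human colorectal adenocarcinoma, in which a FLAG-tagged mouse Cdx1 gene is silent while doxycycline (DOX) is present and is expressed once DOX is withdrawn. The medium of the non-induced cells held 0.5 µg/mL DOX, and the induced cells were the same clone after 24 h without it. The members were all genes with at least 1 probe above the blank spots in either channel of this array, 16520 of the 17004 genes measured on any of the 3 arrays. They came from 22687 measured probes of 24460 gene probes, and 86.4% of gene probes had signal above the blanks in each of the channels.

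There was 1 array per group, with no replicate and no dye swap, so no value carries a test, and the removal of DOX, the dyes, the culture and the choice of clone cannot be told apart from Cdx1 itself. All ratios are log2 of Cy3 over Cy5 after loess within the array, which is likely induced over non-induced. Titles and source names give this direction, as does the study's figure legend of the 12 h array. The cell line field of the channels has it the other way round, and if that field were right all signs below would turn. Spread between probes was gauged from the 2124 genes with exactly 2 measured probes, whose SD between probes was 0.213 on the log2 scale. It pools dim and bright pairs of this array and does not measure spread between arrays, cultures or labellings. The human CDX1 probe (Cy5 signal 24.3, Cy3 signal 89.6, log2 ratio -0.00) need not read the mouse gene and does not check the label. The 11 measured markers of colon epithelium were all above the blank spots in both channels, with a median Cy5 signal of 267 that reached 28976 for KRT18. For fibroblast, immune and endothelial markers 13 of 18 were measured, with a median Cy5 signal of 20.5, a highest one of 111 (DCN), and log2 ratios between -0.42 and 0.08.

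CDX1 is a homeodomain transcription factor of the caudal family that is made in the intestinal epithelium, where with CDX2 it sets intestinal identity and supports differentiation. Colorectal cancers, many of which carry an overactive Wnt pathway in which β-catenin activates TCF and LEF factors, often lose CDX1. Wnt target genes include MYC, AXIN2 and the crypt stem cell genes, and the ID proteins are dominant negative partners of helix-loop-helix factors that keep cells from differentiating.

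After 24 h, 368 genes were at least 2-fold higher and 143 at least 2-fold lower in the induced cells, 2.23% and 0.866% of those measured, or 3.09% together. At least 4-fold differences were found for 17 genes on the higher side and 9 on the lower side, and 4 genes were at least 8-fold higher and 0 at least 8-fold lower. The median log2 ratio over all genes was 0.01 (SD over genes 0.39), and 84.0% of genes lay within 0.5 of 0. At the limit, PELI1 at 1.0005 was counted as higher and CRYBG3 at 0.998 was not, while NFKBIE at -1.0017 was counted as lower and METTL1 at -0.999 was not. All 511 genes were above the blank spots in both channels. Raw signals were not balanced between the dyes: the median over all genes was 60.02 in Cy5 and 172 in Cy3, so that a gene with equal raw signals was below the array's centre. The higher genes had a median Cy5 signal of 149 and a median Cy3 signal of 989, and the lower genes 767 and 677.

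**Figure D1:**
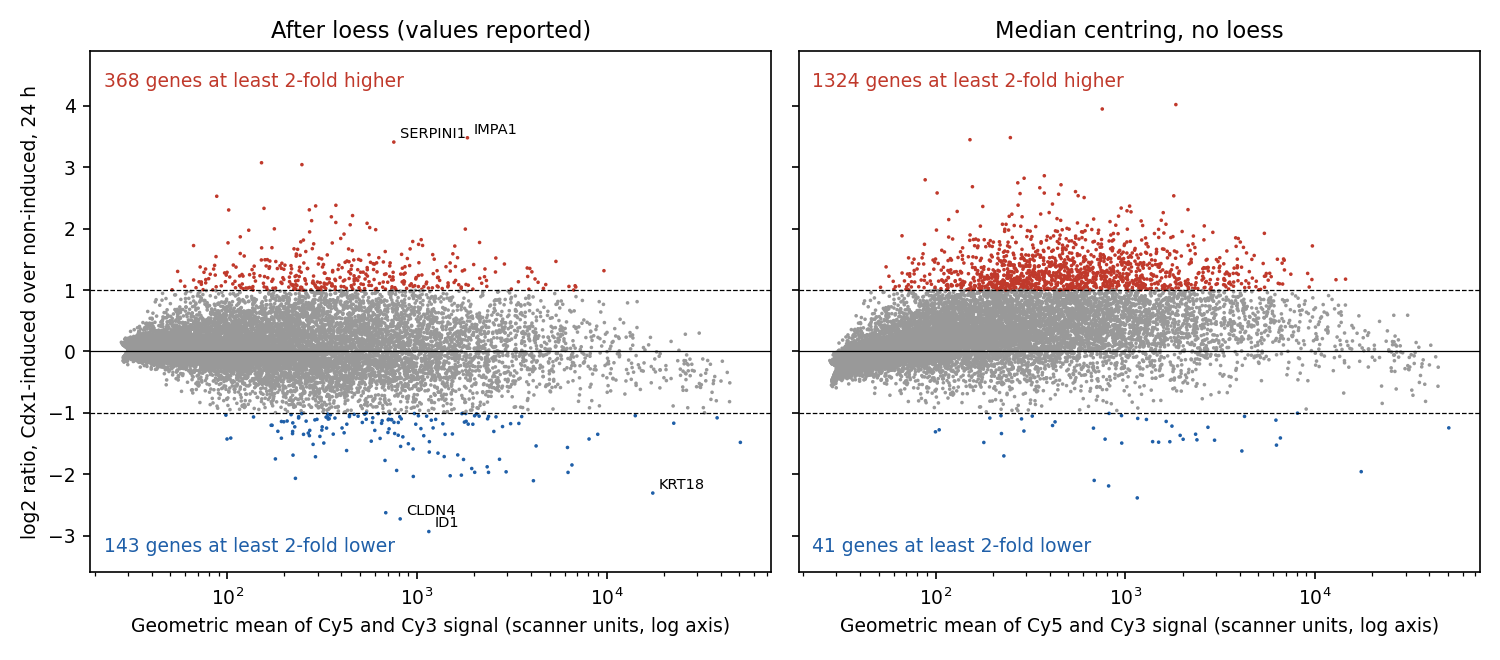
Each point is a gene, with the log2 ratio of Cdx1-induced over non-induced cells at 24 h against the geometric mean of its Cy5 and Cy3 signals (log axis), after loess (left) and with median centring alone (right); dashed lines mark 2-fold, red and blue the genes past it, and 24 Y-linked genes are counted but not drawn. The counts are 368 higher and 143 lower after loess, and 1324 and 41 without it, where the cloud of bright genes lies above 0.

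The balance of higher and lower genes depended on loess. With median centring alone, 1324 genes passed 2-fold on the higher side and 41 on the lower, so that the share of higher genes among those past 2-fold went from 72.0% to 97.0%. The shift followed brightness: in 5 equal bins of brightness the median without loess was -0.21, -0.06, 0.16, 0.41 and 0.55. Each of the 368 higher genes stayed at least 2-fold higher without loess, but only 41 of the 143 lower genes stayed at least 2-fold lower, among them ID1, CLDN4, DDIT4 and KRT18. Levels below are thus relative to genes of similar brightness on the same array. Calls past 2-fold followed brightness after loess as well. From the dimmest bin to the brightest, each of 3304 genes, 0, 7, 61, 144 and 156 were higher and 0, 0, 4, 46 and 93 lower. The shares over all genes given below are therefore not matched for brightness, which limits comparisons with bright or dim lists.

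The gene with the highest ratio was IMPA1, an inositol monophosphatase of inositol recycling, whose probe read 365 in Cy5 and 9318 in Cy3 (log2 ratio 3.48, 11.2-fold). SERPINI1, the serine protease inhibitor neuroserpin, read 143 and 3997 (3.41, 10.6-fold). RGN, the calcium-binding protein regucalcin, read 45.3 and 1353 (3.04). These 3 genes were also higher by over 2 on the log2 scale on both other arrays, IMPA1 at 3.04 and 2.92, SERPINI1 at 2.42 and 2.32 and RGN at 2.06 and 3.87 on the Cdx1 12 h and Cdx2 24 h arrays. CCDC63, a coiled-coil protein of the sperm tail, was different: it read 23.4 and 983 here (3.08), with log2 ratios of 0.77 at 12 h and 0.26 under Cdx2. Its second probe was not above the blank spots in either channel, at 11.7 and 65.6, so that the value rests on 1 probe.

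Some of the next genes in order, CARD18, ARL6 and STOML3 among them, had dim non-induced signals. CARD18, a CARD protein that inhibits caspase-1 activation, read 14.4 in Cy5, just above the limit of 13.6, and 539 in Cy3 (2.53). ARL6, the small GTPase that brings the BBSome to cilia, read 35.4 and 689 (2.33), STOML3, a stomatin-like membrane protein of touch neurons, 20.2 and 514 (2.31), and GALR2, a galanin receptor, 70.0 and 1048 (2.31). GPATCH11 (2.38), HYCC2 (2.37), ODF2L (2.21), CCDC82 (2.19), BCAP29, an ER membrane protein (2.13), MORN2 (2.10) and LCAT, which esterifies plasma cholesterol (2.09), completed the 15 highest. LCAT stood at 3.10 at 12 h, above its 24 h value, and at 0.84 under Cdx2. In the authors' table, which adds no offset, the dimmest of these genes had larger ratios, 6.62 for CARD18, 5.22 for CCDC63 and 4.68 for STOML3.

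Among the 15 lowest genes, ID1 led. ID1 read 2192 in Cy5 and 608 in Cy3 (log2 ratio -2.93). CLDN4, a claudin of tight junctions, read 1439 and 462 (-2.73), and DDIT4, the stress-induced inhibitor of mTORC1 signalling also called REDD1, 1166 and 402 (-2.63). KRT18, a keratin of simple epithelia, was the brightest of them, at 28976 and 10564 (-2.31). In each of these 4 the raw Cy5 signal exceeded the Cy3 signal, although Cy3 was the brighter channel of the array. ID1 and CLDN4 were about as low at 12 h, at -2.89 and -2.68, and less so under Cdx2, at -1.92 and -1.69, while DDIT4 was at -1.37 at 12 h and at -2.55 under Cdx2.

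OASL, an interferon-induced protein of the oligoadenylate synthetase family (-2.04), KRT12, a keratin best known from the cornea (-2.03), SFN, the 14-3-3 sigma protein of the p53 response (-2.01), CXCL5, a neutrophil-attracting chemokine (-1.97), S100A14 (-1.97), TNFRSF12A, the TWEAK receptor (-1.94), and BMP4, a ligand that activates the ID genes through SMAD proteins (-1.91), were also among the 15. LY6G6D, a surface protein of the LY6 family, read 323 and 162 (-2.07) and was the exception across arrays, at -0.37 at 12 h and 0.02 under Cdx2. The remaining members were 3 metallothionein genes, MT1B (-2.11), MT1HL1 (-1.97) and MT1H (-1.96). All of the 15 except LY6G6D were below 0 on all 3 arrays.

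**Figure D2:**
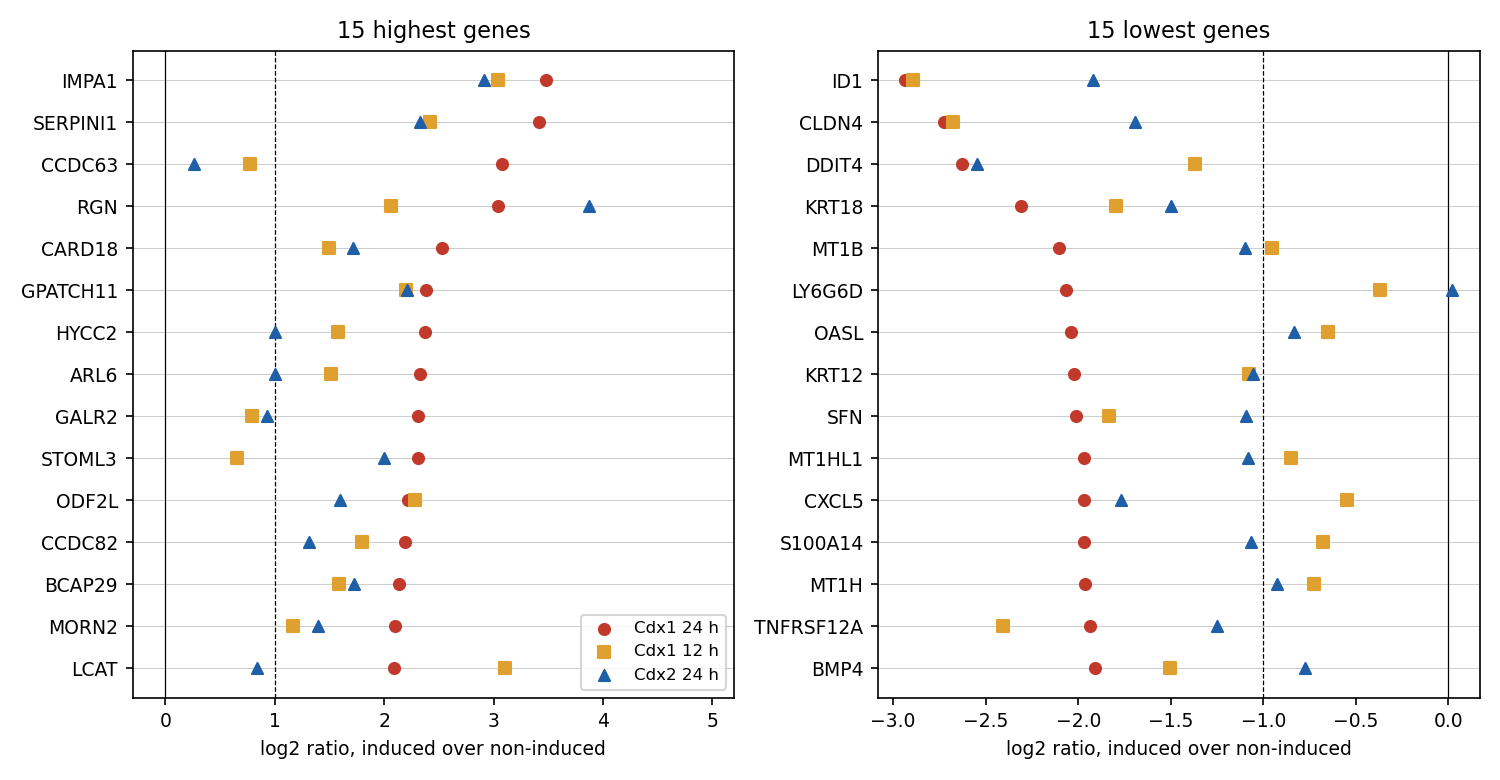
Log2 ratios of induced over non-induced cells for the 15 highest (left) and 15 lowest (right) genes of the Cdx1 24 h array, with the same gene on the Cdx1 12 h and Cdx2 24 h arrays (1 array each, no error bars; dashed lines mark 2-fold). CCDC63 is at 3.08 here against 0.77 and 0.26, and LY6G6D at -2.07 against -0.37 and 0.02, whereas ID1 is below -1.9 on all 3.

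The bases before the start sites of these genes were searched for the CDX core TTTATG on either strand (CATAAA on the reverse). In the 250 bases upstream of RefSeq start sites (GRCh38.p14), it was present in 2 of the 10 highest genes with an entry and in 2 of the 11 lowest, and the 4 are shown, with the core in capitals, to let the windows be compared. They lie at chr13:38990832-38991081 (STOML3), chr1:86396324-86396573 (ODF2L), chr17:40867224-40867473 (KRT12) and chr1:153616326-153616575 (S100A14), all on the minus strand.
STOML3: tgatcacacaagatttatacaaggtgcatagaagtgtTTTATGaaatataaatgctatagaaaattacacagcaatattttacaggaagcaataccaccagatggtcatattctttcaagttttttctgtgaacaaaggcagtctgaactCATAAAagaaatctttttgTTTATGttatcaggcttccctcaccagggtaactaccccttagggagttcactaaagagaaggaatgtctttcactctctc
ODF2L: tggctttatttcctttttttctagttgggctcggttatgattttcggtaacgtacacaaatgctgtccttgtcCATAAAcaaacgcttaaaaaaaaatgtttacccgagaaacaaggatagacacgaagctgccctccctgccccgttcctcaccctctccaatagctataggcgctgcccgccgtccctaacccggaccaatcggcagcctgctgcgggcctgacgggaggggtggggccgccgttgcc
KRT12: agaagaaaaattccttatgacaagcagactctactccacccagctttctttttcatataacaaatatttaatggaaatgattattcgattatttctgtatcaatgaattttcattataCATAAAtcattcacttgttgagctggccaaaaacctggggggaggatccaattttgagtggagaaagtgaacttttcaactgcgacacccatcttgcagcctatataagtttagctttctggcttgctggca
S100A14: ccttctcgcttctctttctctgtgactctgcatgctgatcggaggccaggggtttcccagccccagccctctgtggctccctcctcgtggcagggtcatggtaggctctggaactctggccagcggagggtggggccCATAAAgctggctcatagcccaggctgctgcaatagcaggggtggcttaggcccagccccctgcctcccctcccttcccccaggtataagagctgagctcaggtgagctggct
STOML3 held 3 copies, the others 1 each. Over all genes with an entry, the core was in 5.52% of 308 higher, 7.77% of 103 lower and 6.77% of 13227 measured genes, and in 10.02% of all 27305 RefSeq windows. The E-box CACGTG of MYC and MAX was in 5.52%, 9.71% and 8.04% of the higher, lower and measured genes, and the TCF and LEF core CTTTGA, each on either strand, in 5.84%, 12.6% and 9.12%. E-boxes were in 6.49% and the TCF and LEF core in 11.4% of all windows. Median GC content was 63.2% for the higher genes, 66.0% for the lower genes and 63.2% for all measured genes.

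The ID family, apart from ID4, and MYC were on the lower side. ID2 read 1034 in Cy5 and 785 in Cy3 (log2 ratio -1.503), and ID3 read 856 and 538 (-1.78). ID4 was close to the blank spots, at 13.6 and 70.6 (0.06). Of the helix-loop-helix partners that ID proteins bind, TCF3 was at -0.20, TCF4, the E protein E2-2 and not the Wnt effector TCF7L2, at -0.01 and TCF12 at -0.01, so that 3 of the 7 genes of this list were at least 2-fold lower, against 0.866% of all genes, and 0 higher. ID1, ID2 and ID3 were each at least 2-fold lower on all 3 arrays, ID2 at -1.40 and -1.07 and ID3 at -1.97 and -1.23 on the Cdx1 12 h and Cdx2 24 h arrays.

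MYC, the transcription factor that drives growth and ribosome production, was read by 2 probes that disagreed. The brighter probe read 685 in Cy5 and 248.9 in Cy3 (-2.54), and the dimmer one 17.6 and 68.5 (-0.11), close to the limits of the blank spots at 13.6 and 68.1. Their mean was -1.32. The brighter probe was at -2.35 at 12 h and -1.78 under Cdx2. In the network of MYC partners and antagonists, MYC was the only one of 12 genes past 2-fold, against 3.09% of all genes. MAX, its obligate partner, was at 0.13, MXD1, an antagonist, at 0.43, MYCL at -0.56 and MYCN at 0.35. Such splits between a bright and a near-blank probe were also seen for GDF15, a stress cytokine (-3.38 and -0.05), and BAMBI, a decoy receptor for BMP and TGF-β (-1.88 and -0.03). The mean then understates the change read by the brighter probe.

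**Figure D3:**
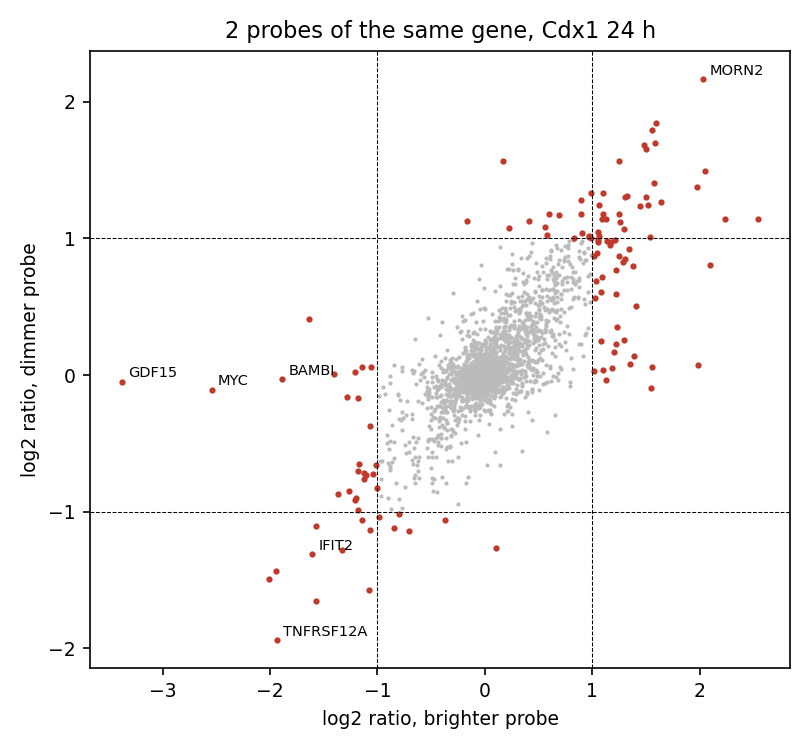
Log2 ratios of the 2 probes of each of 2124 genes with exactly 2 measured probes on the Cdx1 24 h array, the brighter probe on the x axis and the dimmer on the y axis; red marks genes with a probe past 2-fold (dashed lines). Most genes lie along the diagonal, while GDF15, MYC and BAMBI have a dimmer probe near 0.

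Genes with several probes above the blank spots let probes of the same gene be compared, though all share 1 array and its labelling. Not all of these probes were bright, the dimmer MYC and BAMBI probes being among them. Of 1971 genes with 2 or more probes above the blank spots in both channels, 120 had a probe past 2-fold, all probes were at least 2-fold higher for 28 and lower for 10, and 0 had probes past 2-fold in opposite directions. MORN2 (2.04 and 2.17), AK3, a mitochondrial adenylate kinase (1.59 and 1.84), BPNT1, a nucleotidase of the lithium-sensitive phosphatase family to which IMPA1 belongs (1.55 and 1.79), and BLZF1, a golgin-binding protein (1.59 and 1.70), were among the highest of the 28. CEP97, which restrains cilium assembly at the mother centriole, had 2.54 and 1.14, a wider gap. On the lower side, the probes of TNFRSF12A were at -1.94 and -1.94, and those of KIT, the receptor for stem cell factor, at -1.95 and -1.43. IFIT2, an interferon-induced protein, was lower with both probes as well (-1.61 and -1.31).

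Of 19 measured crypt stem cell genes, 2 were at least 2-fold lower and 1 higher, against 0.866% and 2.23% of all genes, with 13 below 0 and a median of -0.11, against 0.01 for all genes. SOX9, a transcription factor of the crypt base, read 710 and 575 (log2 ratio -1.42), and ALDH1B1, a mitochondrial aldehyde dehydrogenase marking colon progenitors, 636 and 565 (-1.29). LGR5, the R-spondin receptor that marks crypt stem cells, read 104 and 151 (-0.69), ASCL2 142 and 216 (-0.59), and CD44 157 and 191 (-0.89), short of 2-fold. BMI1, a Polycomb protein, ran the other way, at 286 and 1821 (1.44). TNFRSF19, a Wnt-induced receptor, was at -0.85, PHLDA1 at -0.61, EPHB2 at -0.11 and EPHB3 at -0.06. OLFM4 was dim, at 14.2 in Cy5 against a limit of 13.6 and at 67.3 in Cy3, below its limit of 68.1, and gave 0.00. The other members, RGMB at 0.45, CDCA7 at -0.23, LRIG1 at 0.15, PROM1 and TERT at 0.13 and -0.13, SMOC2 at -0.09, MSI1 at -0.08 and ALDH1A1 at 0.03, were within 0.5 of 0. Several of these were dim, and the offset shrinks such ratios. LRIG1, SMOC2 and ALDH1A1 (15.2, 17.4 and 14.6 in Cy5) were at 1.45, -0.82 and 0.60 in the authors' table, which adds no offset. SOX9 was at -1.02 and -0.64, LGR5 at -0.41 and -0.42 and CD44 at -0.54 and -0.19 on the Cdx1 12 h and Cdx2 24 h arrays, so that each was lowest at 24 h of Cdx1.

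In the other signalling lists given here a few members each passed 2-fold. In none of these short lists was the share below the 3.09% of all genes. AXIN2, the negative feedback scaffold of the Wnt pathway, was the only one of 19 Wnt feedback genes and TCF factors, at 338 and 280.5 (-1.38), with LEF1 at -0.73, SP5 at -0.52 and CTNNB1, the gene of β-catenin, at 0.52. HES1 (-1.23) and JAG1, a Notch ligand (-1.16), were the 2 of 23 Notch pathway genes, and BMP4 was the only one of 23 BMP pathway genes, with BAMBI at -0.96 as the mean of its probes. Within the cyclins and their inhibitors, CCND2 (-1.72) and CDK4 (-1.01, its 2 probes at -1.04 and -0.98) were at least 2-fold lower and CDKN2C, the CDK4 and CDK6 inhibitor p18, higher (1.497), while CDKN2B, the related inhibitor p15, was at 0.99. Of 30 immediate early and ERK feedback genes, MYC alone was past 2-fold.

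Most intestinal transcription factors stayed close to the array's centre. Of 18 measured, GFI1, a zinc finger protein of secretory cells, was the only one past 2-fold, against 3.09% of all genes. It was at 92.3 and 621 (1.32), and at 0.98 and 0.89 on the other arrays. CDX2 read 267 and 621 (0.03), against -0.46 at 12 h, and 0.64 on the Cdx2 array. GATA6 was at 0.44, KLF5 at 0.33, HNF4G at 0.25, KLF4 at -0.63, ELF3, an epithelial ETS factor, at -0.75 and ISX, a homeobox gene of the gut, at -0.54. ATOH1 (0.06), NEUROG3 (-0.36), SPDEF (0.02), PDX1 (0.07), GATA4 (0.11), SOX2 (-0.13), MAF (0.28), CREB3L3 (0.03) and CDX4 (0.03) were within 0.5 of 0. In the authors' table, which adds no offset, MAF and GATA4 (14.4 and 15.6 in Cy5) were at 2.42 and 1.095, and ISX at -2.90. SPDEF, CREB3L3 and CDX4 stayed near 0 there (0.065, -0.026 and 0.12).

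Differentiation genes past 2-fold went both ways. Of 42 enterocyte and brush border genes, 1 was at least 2-fold higher and 1 lower, against 2.23% and 0.866% of all genes. CA2, a carbonic anhydrase of colonocytes, was at 286 and 1592 (1.26). VIL1, the actin-bundling protein villin of microvilli, was at 199 and 198 (-1.15), and the list median was -0.02. ANPEP was at -0.80. Of 19 mucin and goblet genes, MUC13, a membrane mucin, was at least 2-fold lower (-1.30), against 0.866% of all genes, and 16 were below 0. KRT20, a keratin of differentiated colon cells, was at 0.51. KRT19 (-1.17) and KRT18 were at least 2-fold lower among 16 listed keratins, against 0.866% of all genes. KRT12 (-2.03) is outside that list. Of 20 desmosome and classical cadherin genes, 1 was at least 2-fold higher and 2 lower, against 2.23% and 0.866% of all genes. DSC2, a desmosomal cadherin, was higher at 1.67, and PERP (-1.56) and PKP3 (-1.10), which also belong to desmosomes, were lower. Of the colon epithelium markers 3 of 11 were at least 2-fold lower (KRT18, KRT19 and VIL1), against 0.866% of all genes. The median of these markers was -0.58, and EPCAM was at 0.27.

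**Figure D4:**
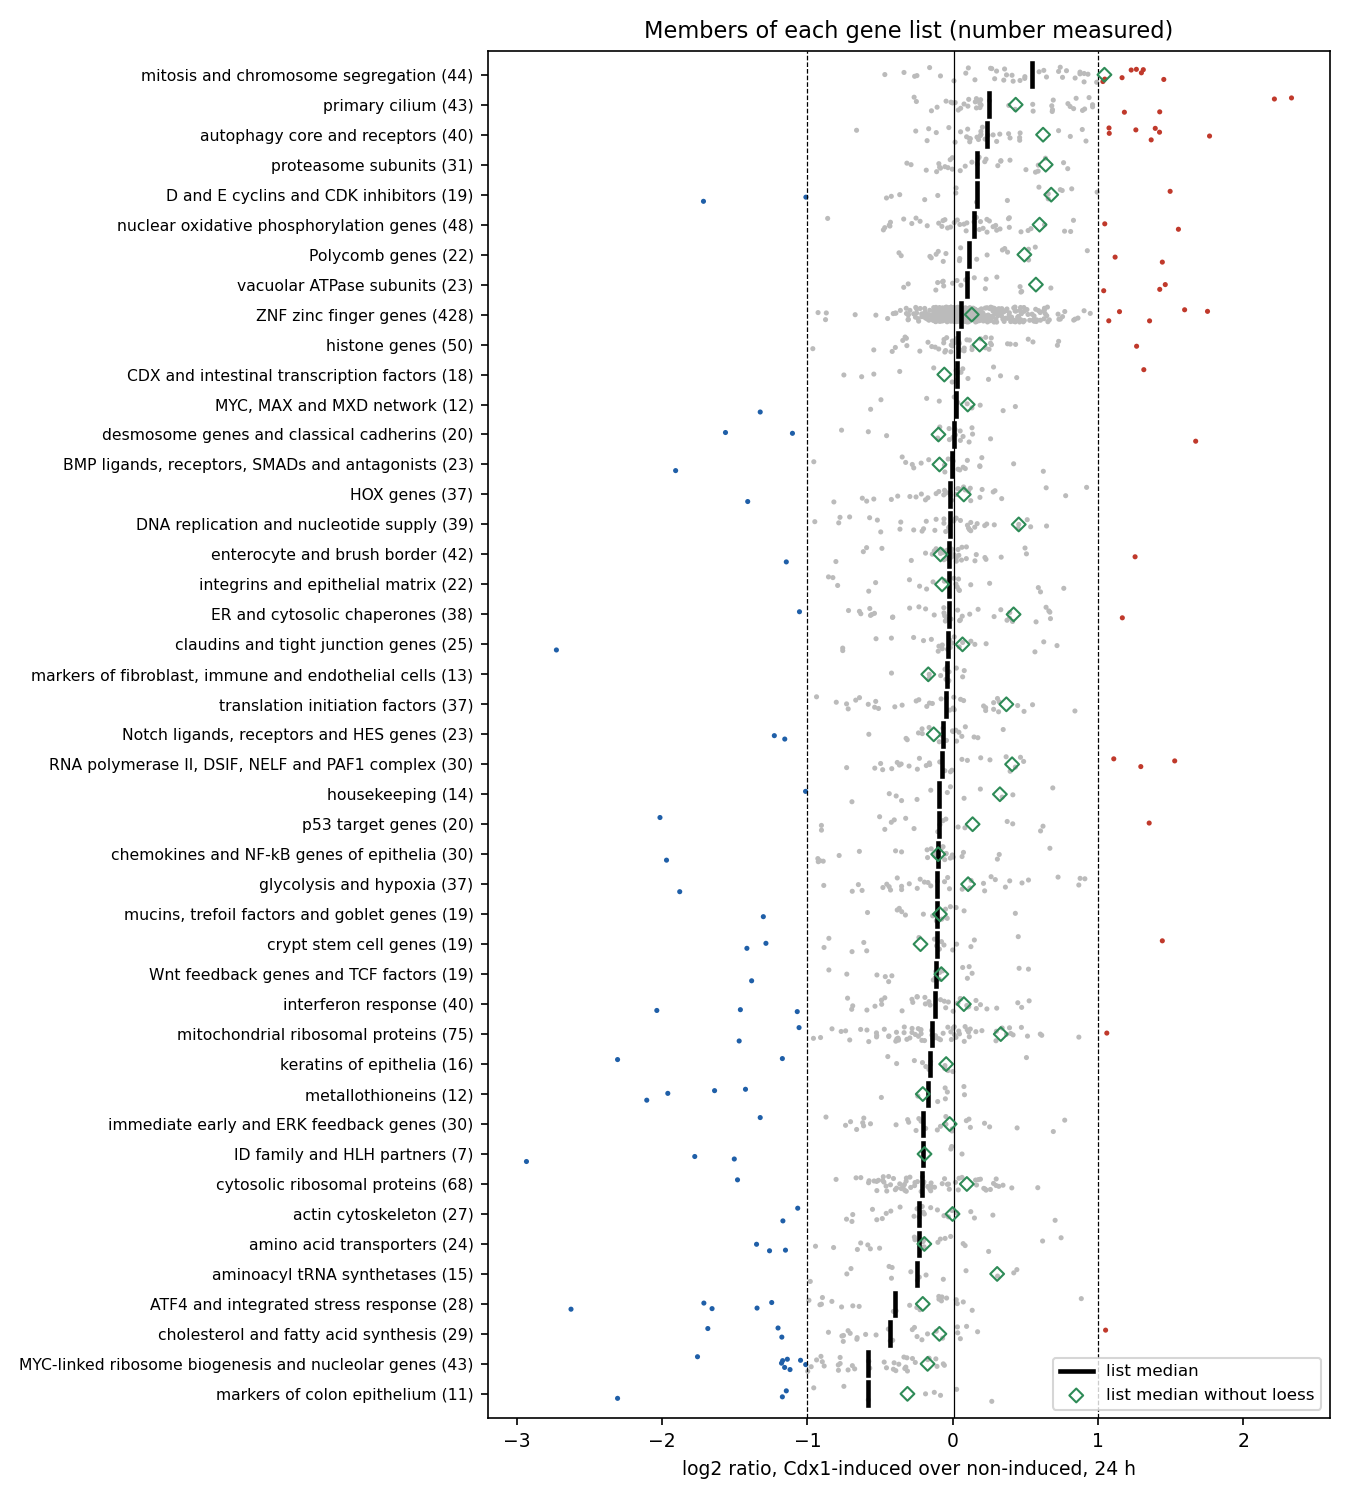
Each point is a member of a gene list, placed by its log2 ratio on the Cdx1 24 h array; bars are list medians, open diamonds the medians without loess, dashed lines 2-fold and the number measured is in parentheses. After loess the ribosome biogenesis list has a median of -0.58 with every member below 0, and its median is -0.17 without loess. The mitosis list has a median of 0.55 that is 1.04 without loess.

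After loess, the ribosome biogenesis genes linked to MYC were the only one of the 45 lists with all members on the same side of 0. The 43 measured members were all below 0, with a median of -0.58 and a range from -1.76 to -0.06, and 8 were at least 2-fold lower against 0.866% of all genes. The list was bright (median Cy5 signal 679), and in the brightest of the 5 bins 93 of 3304 genes were at least 2-fold lower. The lowest member, SRM, is spermidine synthase, a polyamine enzyme and not a nucleolar factor, and read 3489 in Cy5 and 2125 in Cy3 (-1.76). NOLC1, a nucleolar phosphoprotein, was at -1.18, PPAN at -1.17, RRP9 at -1.16, DDX21, a nucleolar RNA helicase, at -1.14, NOP16 at -1.12, MRTO4 at -1.05 and WDR74 at -1.01. The list median was -0.50 at 12 h and -0.59 under Cdx2. Without loess it was -0.17 on this array, and how many members stayed below 0 was not counted there. For the cytosolic ribosomal proteins the list median of -0.21 was closer to the array's centre, and it became 0.10 without loess. Of these, 1 of 68 was past 2-fold, against 3.09% of all genes. It was RPS2 at -1.48, whose Cy5 spot was saturated. Of 75 mitochondrial ribosomal proteins, MRPL12 (-1.47) and MRPS34 (-1.06) were at least 2-fold lower and MRPL53 (1.06) higher, against 0.866% and 2.23% of all genes.

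Genes of amino acid supply and the ATF4 stress response also held members on the lower side. Of 28 ATF4 and integrated stress response genes, 5 were at least 2-fold lower, against 0.866% of all genes, and 0 higher. The list median was -0.40, and it was -0.78 with the blank mean subtracted, -0.77 in the authors' table and -0.21 without loess. Besides DDIT4 and GDF15 these were TRIB3, a pseudokinase (1570 and 1061, -1.66), CHAC1, which degrades glutathione (-1.35), and CEBPB (-1.25). Of 24 amino acid transporters, 3 were at least 2-fold lower, against 0.866% of all genes. They were SLC1A5, a glutamine carrier (1538 and 1285, -1.35), and both chains of the leucine exchanger, SLC7A5 (-1.26) and SLC3A2 (-1.15). The list median of -0.23 became -0.79 with the blank mean subtracted and -0.20 without loess. SLC2A1, the glucose transporter GLUT1, read 3121 and 1761 (-1.88). It was the only one of 37 glycolysis and hypoxia genes past 2-fold, against 3.09% of all genes. Of 29 cholesterol and fatty acid synthesis genes, 3 were at least 2-fold lower and 1 higher, against 0.866% and 2.23% of all genes. FASN (2024 and 1329, -1.69), SCD (-1.20) and SQLE (-1.18) were lower and STARD4, a cholesterol carrier, higher (1.05). The list median was -0.43 here and -0.09 without loess. It was -0.20 on the Cdx1 12 h array and -0.21 on the Cdx2 24 h array. For FASN the values at 12 h and under Cdx2 were -0.77 and -0.99, and for SLC2A1 they were -2.23 and -1.53.

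The metallothioneins, small proteins that bind zinc and copper and are induced by metals through MTF1, had 4 of 12 members at least 2-fold lower, against 0.866% of all genes. These were MT1B (6036 in Cy5, 2798 in Cy3, -2.11), MT1H (4070 and 2139, -1.96), MT1X (1402 and 962, -1.64) and MT2A (9594 and 6792, -1.43), all bright, while 7 of the other 8 lay within 0.25 of 0 and MT1E was at -0.49. MT1HL1, at 8902 and 4396 (-1.97), is a further gene of this family outside the list. The 4 were at -0.95, -0.73, -0.57 and -0.60 at 12 h and at -1.10, -0.92, -0.79 and -0.65 under Cdx2. Near-identical copies may share signal on these probes, so that the 5 values are not independent. The upstream windows of MT1B at chr16:56651636-56651885 and MT1H at chr16:56669564-56669813 (GRCh38.p14, plus strand) were searched for TGCNCNC on either strand (GNGNGCA on the reverse). This pattern is looser than the core of metal response elements, so that a match need not be such an element. Matches are in capitals, and neighbouring matches can overlap.
MT1B: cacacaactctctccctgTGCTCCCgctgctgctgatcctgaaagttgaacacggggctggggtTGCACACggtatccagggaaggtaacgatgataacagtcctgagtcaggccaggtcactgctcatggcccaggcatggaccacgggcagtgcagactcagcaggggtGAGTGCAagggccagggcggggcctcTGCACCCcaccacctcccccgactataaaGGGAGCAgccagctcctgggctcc
MT1H: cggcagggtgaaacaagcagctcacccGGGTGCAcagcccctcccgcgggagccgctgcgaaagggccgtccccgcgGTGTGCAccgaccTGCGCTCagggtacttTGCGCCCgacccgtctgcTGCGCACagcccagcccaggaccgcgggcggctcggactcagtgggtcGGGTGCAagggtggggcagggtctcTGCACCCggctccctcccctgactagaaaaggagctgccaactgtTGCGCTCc
MT1B held 5 and MT1H 8 matches to the looser pattern TGCNCNC, and the windows of MT2A and MT1X held 7 and 4. Windows with at least 4 matches, the fewest among these genes, were 1.70% of all 27305. MT4, which was near 0 on the array (0.08), held 5. Of the 12 members only 5 had a window, those named here, so the remaining members could not be compared.

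Interferon and chemokine genes had a few clearly lower members within lists centred near 0. Of 40 interferon response genes, OASL, IFIT2 and OAS1 (-1.07) were at least 2-fold lower, against 0.866% of all genes, and 0 were higher, with a median of -0.12 that was 0.08 without loess. Of the 30 listed chemokine and NF-κB genes only CXCL5, at 3275 and 1733, was past 2-fold, against 3.09% of all genes. CCL26 (-1.30) and NFKBIE (-1.0017) were past 2-fold outside the list. CXCL10 (-0.93), CXCL1 (-0.93), CXCL3 (-0.91) and CXCL2 (-0.89) followed CXCL5. These 4 dim CXC chemokines were at 0.06, -0.20, -0.04 and -0.14 at 12 h, and at -0.57, -0.51, -0.94 and -0.81 under Cdx2.

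On the higher side, mitosis and chromosome segregation genes had 8 of 44 members at least 2-fold higher and 0 lower, against 2.23% of all genes on the higher side. The list median was 0.55, with 38 above 0, and it was 1.04 without loess, 0.46 at 12 h and 0.34 under Cdx2. CENPE, a kinetochore motor, had 2 probes at 1.64 and 1.27, and SMC4 (747 and 4032, 1.31), SMC2 (1.23) and NCAPG (1.26) are condensin subunits. KIF18A (1.30), NUF2 (1.17), CENPF (1.05) and TTK, the spindle checkpoint kinase (1.03), completed the 8, and MKI67, the proliferation antigen Ki-67, was just short at 0.99. Of 39 DNA replication genes, 0 were past 2-fold either way, against 3.09% of all genes, and the median of -0.02 became 0.45 without loess. POLD2 at -0.95 and PRIM1 at -0.78 were the lowest of these, and ORC6 at 0.65 the highest.

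Genes of the primary cilium, a microtubule-based antenna, had 4 of 43 members at least 2-fold higher, against 2.23% of all genes, and 36 above 0. The list median was 0.25, and it was 0.61 with the blank mean subtracted and 0.63 in the authors' table. ARL6 and ODF2L were the highest, and IFT22 (114 and 801, 1.43) and IFT20 (436 and 2231, 1.18) are subunits of the intraflagellar transport train. BBS2 and BBS12 (both 0.96), KIF3A (0.94) and IFT81 (0.91) followed. Of 40 autophagy genes, a list added after the values had been seen, 7 were at least 2-fold higher, against 2.23% of all genes, and 0 lower. They were ATG4A, a protease that trims ATG8 proteins (120 and 1070, 1.77), MAP1LC3B, the ATG8 protein LC3B (236 and 1507, 1.42), TBK1 (1.39), PIK3C3, the lipid kinase VPS34 (1.37), NBR1, a cargo receptor (1.26), and ATG12 and SH3GLB1 (both 1.08). The autophagy median was 0.23 here (0.62 without loess), 0.18 at 12 h and 0.20 under Cdx2. In the vacuolar ATPase, which acidifies lysosomes and was also added afterwards, ATP6V1H (1.46), ATP6V1D (1220 and 6845, 1.43) and ATP6V1C1 (1.04) were the 3 of 23 past 2-fold on the higher side, against 2.23% of all genes, and the list median of 0.10 became 0.57 without loess.

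In the transcription elongation machinery (RNA polymerase II with DSIF, NELF and PAF1 complex subunits), 3 of 30 genes were at least 2-fold higher, against 2.23% of all genes. CTR9, a PAF1 complex subunit, read 240 and 1648 (1.53), POLR2K, a small subunit shared by the RNA polymerases, 1141 and 5895 (1.29), and TCEA1, the elongation factor TFIIS, 283 and 1422 (1.11). CTR9 was at 0.82 and 1.01 on the Cdx1 12 h and Cdx2 24 h arrays, POLR2K at 0.68 and 0.44 and TCEA1 at 0.73 and 0.76. POLR2I was at -0.73 and POLR2H at -0.54, and the list median of -0.07 became 0.41 without loess. NDUFB3, a complex I subunit (80.3 and 664, 1.55), and UQCRB, a complex III subunit (1.05), were the 2 of 48 nuclear oxidative phosphorylation genes past 2-fold, against 3.09% of all genes. Of 31 proteasome subunits none was past 2-fold either way, against 3.09% of all genes (median 0.17, highest PSMB1 at 0.79). Polycomb genes included RNF2, the ubiquitin ligase RING1B, with both probes high (1.09 and 1.15), and EZH2 at 0.93 besides BMI1. Of 428 ZNF genes, 5 passed 2-fold on the higher side, a smaller share than the 2.23% of all genes, and 0 on the lower (ZNF654 at 1.75, ZNF711 at 1.60), and 272 were above 0. The ZNF list was dim, with a median Cy5 signal of 43.8 against 60.02 over all genes, and dim genes seldom passed 2-fold.

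Beside the Cdx1 array at 12 h, the 24 h array held more genes past 2-fold, 2.23% against 1.07% on the higher side and 0.866% against 0.365% on the lower side. Of the 368 higher genes, 133 (36.1%) were at least 2-fold higher at 12 h, which was 76.0% of the 175 such genes of that array. For the lower genes the overlap was 47 (32.9%), or 78.3% of 60. At 12 h, 367 of the 368 higher genes were above 0 and 143 of the 143 lower genes below 0. The median of the higher genes was 1.21 here and 0.88 at 12 h, and that of the lower genes -1.22 and -0.75, although the members were chosen by their 24 h values, which alone favours the 24 h side. Besides CCDC63, STOML3 and GALR2, which was at 0.80 at 12 h, the largest gains over 12 h, among genes past 2-fold on at least 1 of the 2 arrays, were in TSPAN3, a tetraspanin (2.06 against 0.60), TECTA (1.14 against -0.04) and TRIM8 (1.45 against 0.30). OLR1, a receptor for oxidised LDL (-1.55 against -0.05), CXCL5 (-0.55 at 12 h), OASL (-0.65), S100A14 (-0.68), DDIT4 and LY6G6D had the largest differences the other way by that rule.

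Beside Cdx2 at 24 h, 114 of 367 higher genes (31.1%, 76.5% of the 149 higher genes of that array) and 33 of 143 lower genes (23.1%, 82.5% of 40) were past 2-fold on both. The Cdx2 array had 0.896% of its genes at least 2-fold higher and 0.241% lower. On it 365 of the 367 were above 0 and 139 of the 143 below 0. Induction was faster for Cdx1 than for Cdx2 per the methods, and no measure of protein amount was used here. CCDC63 (3.08 against 0.26), ARSH (1.87 against 0.16) and TBX18, a T-box factor (1.36 against -0.12), were the largest differences above Cdx2 by the same rule, and GALR2, HYCC2 and ARL6, at 0.92, 1.0008 and 0.9998 under Cdx2, came next. The largest differences below Cdx2, by that rule, were CCL20, a chemokine of the gut epithelium (0.32 against 2.55, and 1.53 at 12 h), LY6G6D, CCND2 (-1.72 against -0.36), NUDT2 (-1.51 against -0.19), CCL26 (-1.30 against -0.01) and OLR1 (-0.29 under Cdx2).

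**Figure D5:**
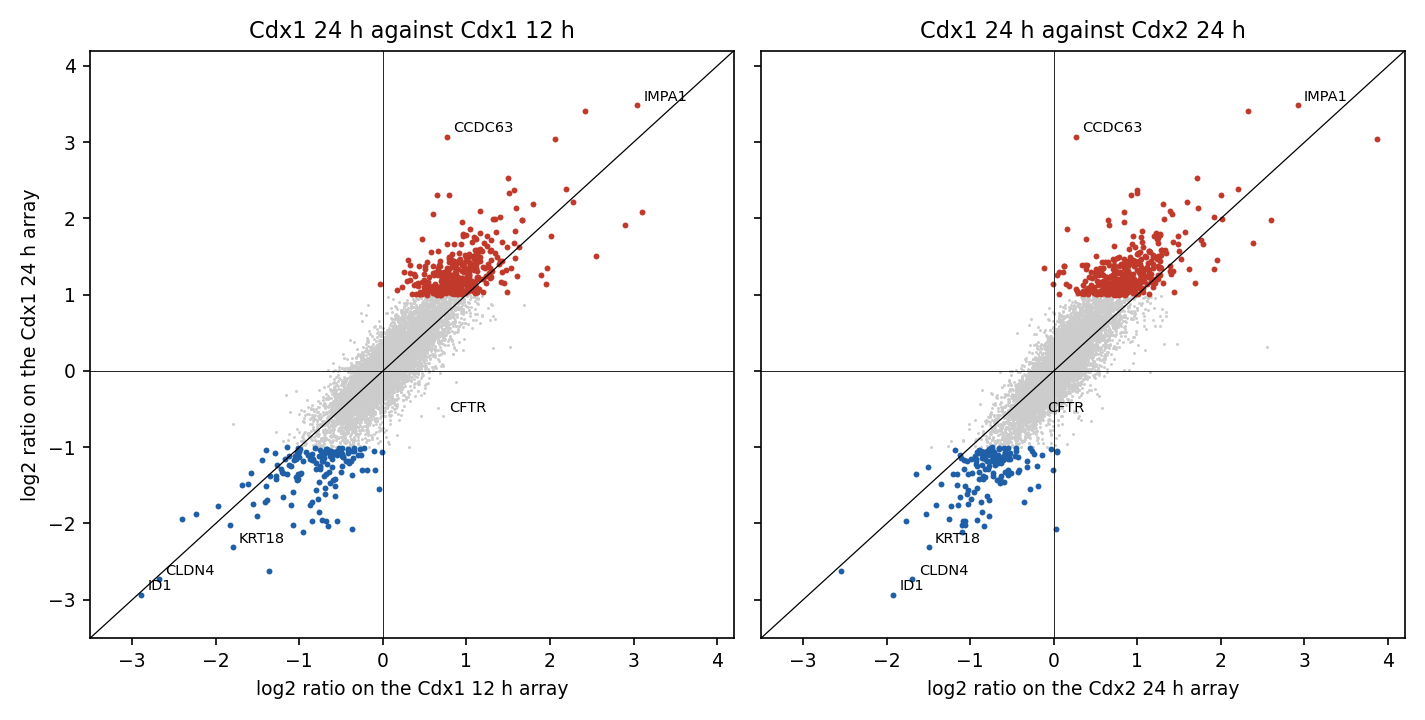
Log2 ratios on the Cdx1 24 h array (y axis) against the Cdx1 12 h array (left) and the Cdx2 24 h array (right), 1 point per gene measured on both; red and blue are genes at least 2-fold higher or lower at 24 h of Cdx1, the diagonal marks equal ratios, and Y-linked genes are not drawn. Of the coloured genes, 367 of 368 higher ones are above 0 at 12 h and 139 of 143 lower ones below 0 under Cdx2, and CCDC63 lies far above the diagonal in both.

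Differences past 2-fold on all 3 arrays were found for 66 of the higher and 18 of the lower genes. By contrast, 13 of the higher genes stayed under 0.5 on both other arrays, among them TECTA and UQCRB, and 16 of the lower genes stayed above -0.5, among them LY6G6D, MUC13, OLR1, CCL26, HSPB1, a small heat shock protein (-1.05 here, -0.34 and 0.04), and TFRC, the transferrin receptor (-1.01 here, -0.34 and -0.29). With 1 array each, whether these differ between times or factors was not tested.

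For the 923 genes seen above the blank spots in 1 channel only, no fold is given, since the ratio of such a spot moves with the offset. SLC38A4, an amino acid transporter, read 13.0 in Cy5, not above the blank spots, and 137 in Cy3, ROPN1B 13.1 and 133, and STATH 12.55 and 115.5. Seen in Cy5 alone, KLF17 read 21.2 and 67.2 and PI15 20.2 and 66.05, with Cy3 below its limit of 68.1.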

How the data were processed

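Total RNA of the DLD1 TetOff clone was isolated with TRI Reagent, treated with DNase and amplified to amino allyl aRNA, which was coupled to Cy5 (non-induced) or Cy3 (induced). The authors deposited scanner files with the spot intensity at 635 and 532 nm, with no background subtracted, and a table of log2 values. By comparison with the scanner values, the deposited table is the log2 ratio (Cy3 over Cy5) of signals less the mean of the blanks, with the median set to 0 (21123 probes filled; all within 0.01 of one common offset, 1.14, from that calculation), so that its scale, centring and direction were found from the values. The scanner is not given in the sources used here.

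Scanner values were corrected with normexp (no local background, offset 50) and normalized by loess within the array (span 0.3, control and flagged spots at weight 0) in limma 3.58.1 under R 4.3.3. Ratios of dim probes are shrunk by the offset. Of the gene probes, 6 were flagged and left out. A probe was measured where it exceeded the mean of 2680 blank spots (5% trimmed at each end) by 2 SD in at least 1 channel, at 13.6 in Cy5 and 68.1 in Cy3. A gene was the mean of its measured probes, and raw signals in the text are those of its brightest probe. The blank means were 12.2 and 62.5, and 1 gene probe (RPS2) was saturated in Cy5 and 0 in Cy3. The number of arrays, 1 per group, limits the precision. The steps were tested on simulated ratios in which only bright probes were changed. Signs, order and calls of the larger changes had to come back, but not calls at 2-fold, and dim probes were not covered. Symbols came from the platform annotation and were checked against RefSeq names of GRCh38.p14: 17238 were current, 2899 updated, 98 ambiguous and kept, and 1 unmatched. Promoter windows matched 13227 measured genes, and the first entry per symbol was used.

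Named genes were the 15 highest and 15 lowest above blank spots in both channels, every member of the CDX, ID, MYC and stem cell lists, up to 5 of every other list, the 5 highest and lowest seen in 1 channel only, the 6 largest differences each way from each other array, and the 8 highest and lowest whose probes all passed 2-fold. Other genes named (the further members past 2-fold of the mitosis, ribosome biogenesis and autophagy lists, the nearest members short of it, the genes at the 2-fold limit, and the metallothioneins) were picked after their values were seen. The members and the 45 gene lists were chosen with earlier results of these data known, and the autophagy and vacuolar ATPase lists after the values of this array. Lists are described by counts and medians alone. Alternatives were other background corrections and offsets, no loess, the authors' table, other filters on dim probes, the brightest probe and a 1.5-fold threshold.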

Additional observations from a re-analysis of the deposited data

Results flagged for a closer look

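CFTR, the chloride channel of the crypt, was at -0.59 at 24 h of Cdx1 and at 0.71 at 12 h, on opposite sides of 0 by more than the SD between probes. That SD does not measure spread between arrays. AGR2, a goblet cell disulfide isomerase, was at -0.59 here (its 2 probes at -0.77 and -0.40), at 0.46 at 12 h and at 0.31 under Cdx2. With 1 array each, these differences were not tested. Without loess, CFTR and AGR2 were at -0.08 and -0.10.

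Of 3855 measured probes without a gene name, 57 were past 2-fold, 38 higher and 19 lower. This was 1.48% of them, against 3.25% of the named probes.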

How the results depend on the processing

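The counts of 368 higher and 143 lower genes depended on the treatment of dim and bright probes. They were 1324 and 41 with median centring in place of loess, 1581 and 760 with the blank mean subtracted before loess, 990 and 449 with an offset of 0, 132 and 66 with an offset of 200, and 1362 and 485 in the authors' table. At a threshold of 1.5-fold they were 1391 and 651. Without background correction the lower count was 216 and the higher one 514. Requiring signal in both channels, no filter on dim probes or the brightest probe left both counts within 1.5 times. Of the 368 higher genes, 357 stayed at least 2-fold higher in the authors' table and 132 with an offset of 200, and of the 143 lower genes 143 and 63 stayed lower.

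The medians of the aminoacyl tRNA synthetases and the cytosolic ribosomal proteins changed sign without loess, from -0.24 to 0.31 and from -0.21 to 0.10. Over all lists and alternatives, 361 medians moved by less than 0.213, the SD between probes, 42 by more, and these 2 changed sign from a value past it. All 130 named genes past 2-fold kept their sign under the alternatives tried, offsets, corrections, loess, filters, probe choice and the authors' table. They were taken as past 2-fold on the same spots, so a change of sign was unlikely from the start. No paired analysis was possible because each group held 1 array and the labels give no replicate numbers. Dim non-induced signals limit the ratios of genes such as CARD18, whose log2 ratio was 2.53 here and 6.62 in the authors' table.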

Other observations

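HOXA11, a posterior HOX gene, read 115 in Cy5 and 94.8 in Cy3 (-1.41, with -1.28 at 12 h and -0.85 under Cdx2). It was the only one of 37 measured HOX genes past 2-fold, against 3.09% of all genes. HOXD8 was at 0.92, HOXA10 at -0.82 and HOXB5 at 0.78. Of 50 histone genes, H2AC6 was the only one past 2-fold (1.27, with 0.37 at 12 h and 1.41 under Cdx2), against 3.09% of all genes. H3-3B, which had 2 probes at 0.61 and 0.85, was at -0.20 at 12 h. Of 38 chaperone genes, DNAJC3, an ER co-chaperone that inhibits eIF2α kinases, was higher at 330 and 1705 (1.17), and HSPB1 lower. These were the only 2 past 2-fold, against 3.09% of all genes. Among 20 p53 targets, RRM2B, a ribonucleotide reductase subunit, was at 1.35 while SFN was at -2.01. ACTG1, gamma actin, was at -1.17 and ACTB at -0.69, and 22 of 27 actin cytoskeleton genes were below 0 (median -0.23, or -0.00 without loess).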
